A study of Mus musculus with 24 samples.

Results

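Genes for the proteins of the mitochondrial ribosome were followed in liver RNA of mice given ethanol, the plasticiser DEHP, or both. A gene was taken as a member when its symbol began with Mrpl (large subunit) or Mrps (small subunit) followed by a number, was not marked as a pseudogene, and reached 1 FPKM (fragments scaled to transcript length and library size) in at least 6 of 24 libraries. All 77 genes with such a symbol passed, 48 named for the large and 29 for the small subunit, among 10697 genes that passed the same filter and 17537 listed in at least 1 library. The mice were male C57BL/6 animals of 20 to 30 g, and each of the 4 groups has 6 libraries. The vehicle group (CT) was gavaged with 0.5% CMC, the ethanol group (EtOH) with 1 g/kg of ethanol, the DEHP group (DEHP) with 2500 mg/kg of DEHP, and the combination group (DE) with both agents at those doses. Per the labels there were 12 mice in a group. Whether a library stands for a single mouse or a pool, how long and at what age the mice were treated, and in which batches the libraries were made are stated nowhere in the labels. P-values below therefore measure the spread between libraries, which may in part be technical.

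Mitochondria make a small set of respiratory chain subunits on their own ribosomes, which descend from bacterial ones. The ribosomal RNAs come from mitochondrial DNA, whereas every ribosomal protein is encoded in the nucleus, made in the cytosol and imported. About the bacterial core sit proteins that only mitochondrial ribosomes have, and the names do not always give the subunit: the products of Mrps18a and Mrps30 are known to lie in the large subunit, and the product of Mrps36 is now regarded as part of the alpha-ketoglutarate dehydrogenase complex. Here the genes are counted by name. DEHP is known as a peroxisome proliferator in rodent liver.

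The stretches before 5 of these genes are shown because nuclear control of the family is thought to act on short promoter words, and because these genes return below: Mrps27 and Mrps36 as the largest rises before length correction, Mrps22 and Mrpl10 as carriers of a word, and Mrpl12 as the member with the highest level. They come from the RefSeq promoter table of GRCm38.p6, which matched 68 of the 77 members, and were trimmed to bases covered by no GENCODE exon and no RefSeq gene record. Each is written 5′ to 3′ on the strand of its gene, and capitals mark a word that was searched. Mrps27 is on the plus strand at chr13:99344706-99344766, Mrps22 on the minus strand at chr9:98601680-98601929, Mrpl10 on the plus strand at chr11:97041408-97041559, Mrps36 on the minus strand at chr13:100744660-100744909 and Mrpl12 on the plus strand at chr11:120484387-120484612.
Mrps27: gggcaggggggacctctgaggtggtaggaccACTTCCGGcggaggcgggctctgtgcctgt
Mrps22: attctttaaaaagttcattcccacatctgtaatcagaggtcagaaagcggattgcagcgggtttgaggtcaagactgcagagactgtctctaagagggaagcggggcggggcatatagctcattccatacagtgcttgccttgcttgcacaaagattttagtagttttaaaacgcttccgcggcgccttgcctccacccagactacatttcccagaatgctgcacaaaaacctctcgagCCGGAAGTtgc
Mrpl10: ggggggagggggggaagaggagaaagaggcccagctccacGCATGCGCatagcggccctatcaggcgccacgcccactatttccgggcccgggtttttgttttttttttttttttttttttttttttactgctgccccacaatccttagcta
Mrps36: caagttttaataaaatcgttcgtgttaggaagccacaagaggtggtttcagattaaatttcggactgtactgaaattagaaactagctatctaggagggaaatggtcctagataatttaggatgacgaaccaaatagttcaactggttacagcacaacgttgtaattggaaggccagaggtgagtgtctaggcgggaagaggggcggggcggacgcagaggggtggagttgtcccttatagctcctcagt
Mrpl12: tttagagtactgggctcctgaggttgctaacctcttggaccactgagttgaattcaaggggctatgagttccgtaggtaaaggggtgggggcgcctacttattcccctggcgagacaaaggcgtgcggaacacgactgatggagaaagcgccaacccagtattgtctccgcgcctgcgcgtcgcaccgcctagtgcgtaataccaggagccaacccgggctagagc

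6 short words were searched on both strands of the window from 250 bases before to 50 bases after each start. The ETS word CCGGAAGT, read by factors such as GABP, was in the window of 17.6% of members, of 9.73% of the genes tested and of 4.31% of all 27025 genes in the table. The YY1 word AAGATGGC was in 17.6% of members, 5.68% of genes tested and 3.19% of all genes. The NRF1 palindrome, which is GCATGCGC with GC before it, was in 4.41%, 2.43% and 1.07%, and the shorter GCATGCGC that lies within it in 11.8%, 6.14% and 3.05%. The E box CACGTG (7.35%, 12.3% and 8.09%) and TATAAA (7.35%, 9.04% and 15.7%) were in fewer members than genes tested. In Mrps27 the ETS word begins 49 bases and in Mrps22 11 bases before the start in the promoter record, and in Mrpl10 the shorter NRF1 word begins 134 bases before it. For Mrps27, 19 bases lie between the printed stretch and that start, and its window also holds the YY1 word outside the stretch. No searched word is in the stretches of Mrps36 and Mrpl12. Of the 39 matched members that were higher in DE than in CT, 12.8% held the ETS word and 17.9% the YY1 word, beside 24.1% and 17.2% of the 29 that were not. A match is a description of letters, and no binding was measured.

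In FPKM, which is per length, the members spanned a wide range of levels. Over 24 libraries the mean was 3.11 to 149 FPKM (median 32.5) for the large subunit and 4.52 to 101 FPKM (median 26.3) for the small. Mrpl12, which with Mrpl10 forms the stalk that takes up translation factors, had the highest level at 149 FPKM. Mrpl52 (118 FPKM) and Mrpl14 (105 FPKM) followed in the large subunit. In the small subunit Mrps21 (101 FPKM), Mrps34 (86.7 FPKM), which stabilises that subunit, and Mrps12 (65.1 FPKM), part of the decoding site, were highest. The lowest that passed were Mrpl19 at 3.11 FPKM and Mrps25 at 4.52 FPKM. Mean expected counts were 60.7 to 906 per member, with a median of 214.

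Library totals were 7324793 to 8016662 expected counts, and 13958 to 15114 genes were above 0. The 8 hepatocyte markers were all detected, with a summed level of 40000 to 68500 FPKM in every library. Transcripts of skeletal muscle reached a summed 5930 FPKM in CT 1 and 4370 FPKM in DE 6, against at most 4 FPKM elsewhere, and those of exocrine pancreas 575 FPKM in DEHP 6, against at most 38.2 FPKM elsewhere. Counts below are also given without these 3 libraries.

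In summed FPKM the members were lowest in CT and highest in DE by group median. Their sum was 2404, 2539 and 2624 FPKM (lowest, median and highest library) in CT, and 2520, 2662 and 2853 FPKM in EtOH. In DEHP it was 2827, 2970 and 3068 FPKM, and in DE 3040, 3197 and 3316 FPKM. Every DEHP and DE library lay above every CT library. CT and EtOH overlapped, as did the top of EtOH with the bottom of DEHP and the top of DEHP with the bottom of DE, whereas all DE libraries lay above all EtOH libraries. The large subunit summed to medians of 1666, 1729, 1918 and 2041 FPKM in CT, EtOH, DEHP and DE, and the small subunit to 867, 934.3, 1052 and 1178 FPKM. Members took 0.208% to 0.225% of all counts in CT and 0.254% to 0.282% in DE. In bulk tissue, fewer cells of a type and less RNA per cell cannot be told apart, nor can more of either.

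**Figure D1:**
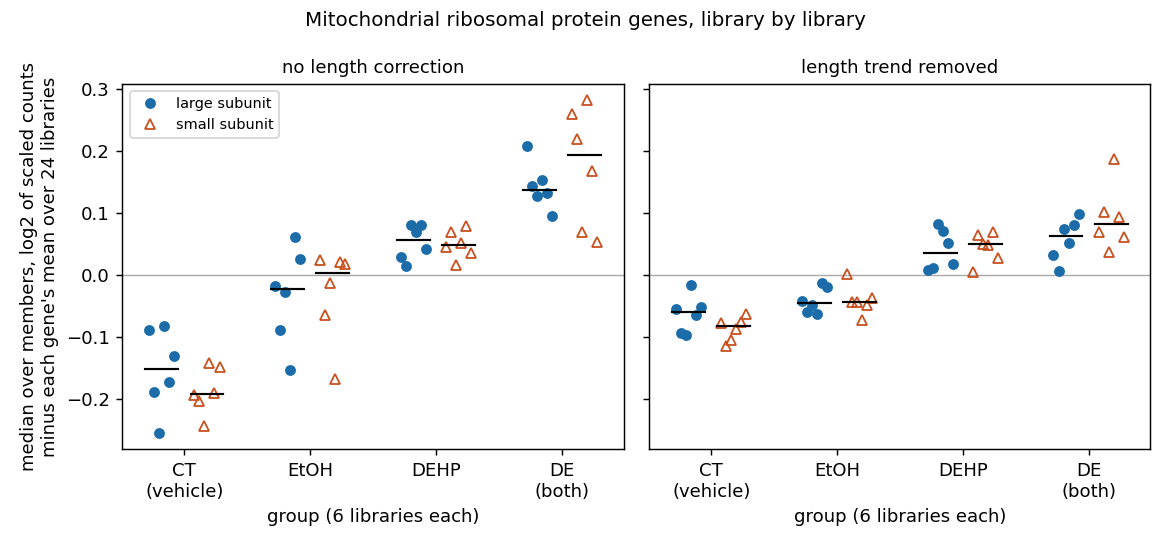
Each point is a library: the median over 48 large subunit genes (circles) or 29 small subunit genes (triangles) of the log2 scaled count minus the gene's mean over 24 libraries. Lines are group medians. Without a length correction (left) large subunit medians run from -0.25 to -0.08 in CT and from 0.10 to 0.21 in DE; with each library's length trend removed (right) they run from -0.10 to -0.02 and from 0.01 to 0.10.

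The combination against vehicle gave the most calls. In edgeR's quasi-likelihood test with Benjamini-Hochberg adjustment, 23 of 48 large subunit genes and 22 of 29 small subunit genes were higher in DE than in CT, and none was lower; over all genes tested 19.3% were higher and 17.4% lower, 36.8% in either direction. The median log2 change was 0.24 for the large and 0.37 for the small subunit, beside -0.01 for all genes tested. After removal of the length trend, described below, 16 large and 11 small subunit genes were higher, with medians of 0.10 and 0.21, and Mrpl38 alone was lower; 15.7% of all genes were then higher and 13.2% lower. All DE libraries lay above all CT libraries in FPKM for 33 of the 77 members, 19 large and 14 small, beside 10.7% of all genes; none was lower without overlap, beside 5.44%. Without CT 1, DE 6 and DEHP 6, 44 members were higher, and the share of all genes in that fit is not given here. Hepatocyte markers moved too: 5 of 8 were lower and 1 was higher in DE than in CT, with sums of 41900 to 46400 FPKM against 48700 to 67800 FPKM. Of the other cells, 2 of 7 endothelial, 1 exocrine pancreas and 1 erythroid marker were lower and none was higher. The part of these in the members' rise was not tested.

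**Figure D2:**
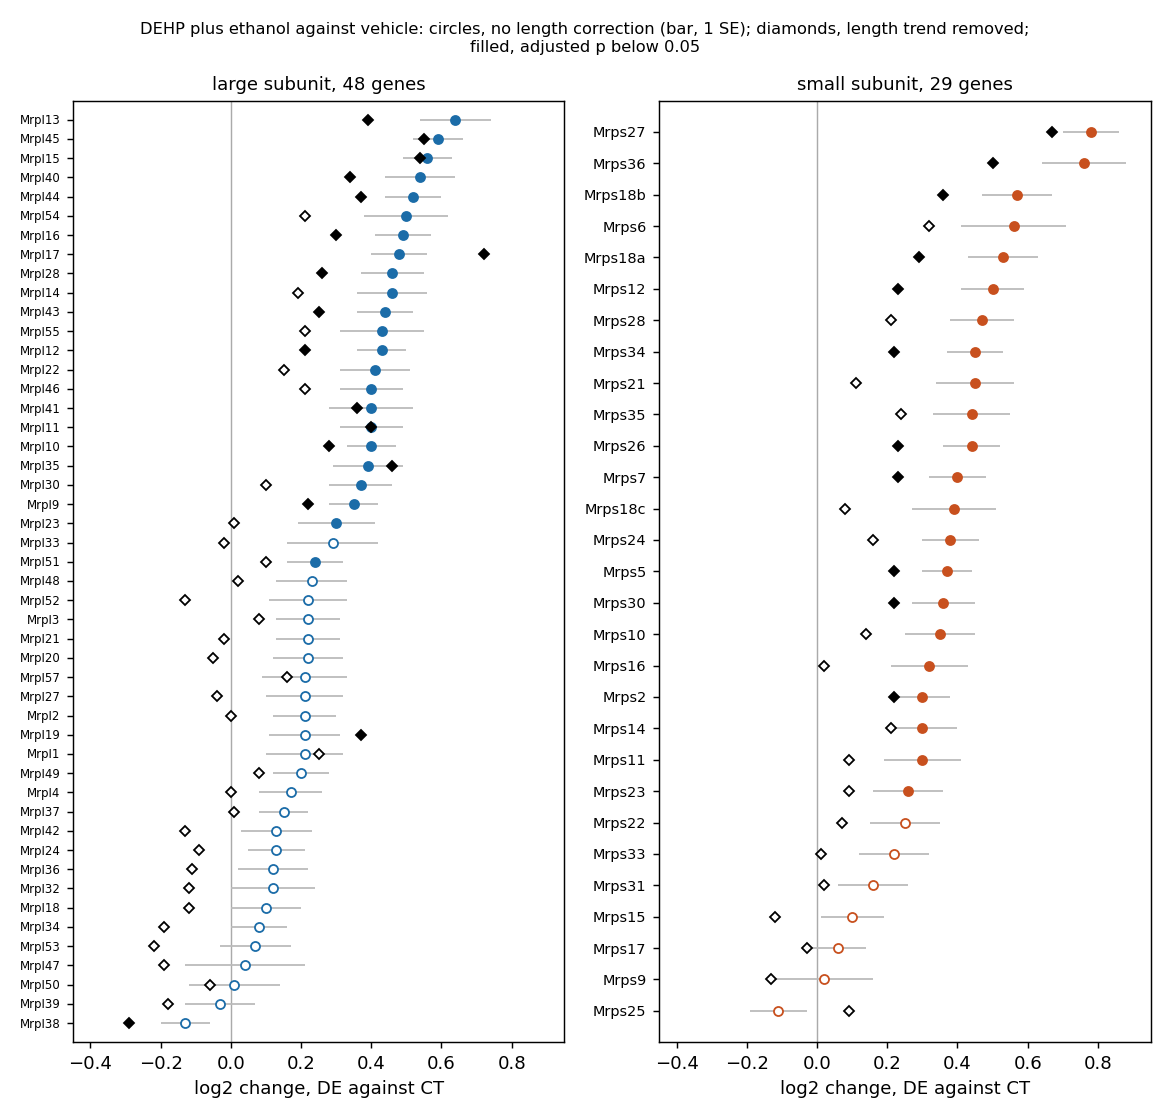
Log2 change of each member in DE against CT, large subunit left and small subunit right, in order of the change. Circles with bars of 1 SE are without length correction, diamonds with the length trend removed, and filled symbols passed the test. The highest circles are Mrpl13 at 0.64 and Mrps27 at 0.78, and most diamonds lie to the left of their circles.

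Mrps27 had the largest rise without length correction, and with it was second to Mrpl17. It encodes a pentatricopeptide repeat protein of the small subunit and lies, by its RefSeq gene record, at 99344767 to 99415562 on chromosome 13. Its level was 19.43, 21.2 and 22.86 FPKM (lowest, median, highest) in CT, 16.11, 18.6 and 23.19 FPKM in EtOH, 27.74, 30.5 and 33.54 FPKM in DEHP, and 32.99, 35.8 and 41.82 FPKM in DE. CT and EtOH overlapped, DEHP stood above both, and DE overlapped only with the top of DEHP. The log2 change in edgeR was 0.51 ± 0.08 (SE) in DEHP (adjusted p = 5.23e-05) and 0.78 ± 0.08 in DE (adjusted p = 9.02e-08) against CT, and 0.45 and 0.67 with the length trend removed.

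Mrps36 rose next most in the small subunit. It was at 12.04, 15.7 and 24.37 FPKM in CT, 16.78, 20.2 and 22.21 FPKM in EtOH, 22.77, 25.1 and 30.16 FPKM in DEHP and 26.75, 27.7 and 30.88 FPKM in DE. The highest CT value is that of CT 1, one of the libraries with muscle transcripts, and it is the only CT library that reaches into DEHP. The log2 change was 0.62 ± 0.12 in DEHP (edgeR, adjusted p = 0.000587) and 0.76 ± 0.12 in DE (adjusted p = 3.64e-05), and 0.47 and 0.50 with the length trend removed. The 3 genes of the Mrps18 family, which share an ancestor, were all higher in DE: Mrps18b by 0.57 ± 0.10 (adjusted p = 0.000154), Mrps18a by 0.53 ± 0.10 (adjusted p = 0.000139) and Mrps18c by 0.39 ± 0.12 (adjusted p = 0.014). With the length trend removed Mrps18c was at 0.08 and no longer passed (adjusted p = 0.666), whereas Mrps18b (0.36) and Mrps18a (0.29) did. No difference between the 3 was tested. Mrps6 was 0.56 ± 0.15 higher in DE (adjusted p = 0.00453), but its exons overlap those of Slc5a3 on the same strand, so that reads of the pair may be shared, and it did not pass with the length trend removed (0.32, adjusted p = 0.0835).

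Further down the small subunit, Mrps12 was at 53.51, 54.9 and 60.1 FPKM in CT and 69.44, 79.8 and 87.28 FPKM in DE, without overlap, a change of 0.50 ± 0.09 (edgeR, adjusted p = 0.000144). Mrps34 changed by 0.45 ± 0.08 (adjusted p = 0.000148) and Mrps28 by 0.47 ± 0.09 (adjusted p = 0.000199). As with Mrps6, exons of Mrps34 (with Nme3) and of Mrps18c (with Gm43511) overlap another gene on the same strand, so reads may be shared. With the length trend removed Mrps34 passed in edgeR (0.22, adjusted p = 0.0273) and Mrps28 did not (0.21, adjusted p = 0.0566). Mrps21, the most abundant of the small subunit by FPKM, changed by 0.45 ± 0.11 (adjusted p = 0.00276), with overlap between the groups, and by 0.11 after length correction (adjusted p = 0.338). Of the 7 small subunit genes that did not pass, Mrps25, with a deposited length of 6076 bases, was at -0.11 (adjusted p = 0.322).

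In the large subunit Mrpl13, Mrpl45, Mrpl15 and Mrpl40 rose most in DE without length correction; with it Mrpl17 (0.72), Mrpl45 (0.55), Mrpl15 (0.54) and Mrpl35 (0.46) did. Mrpl13, which has a bacterial counterpart, was at 33.52, 38 and 40.34 FPKM in CT and 53.64, 59.0 and 65.63 FPKM in DE. Its groups did not overlap, and the change was 0.64 ± 0.10 (edgeR, adjusted p = 2.81e-05), or 0.39 with the length trend removed. Mrpl45, which anchors the ribosome to the inner membrane near the exit of the nascent chain, was at 8.71, 10.1 and 11.37 FPKM in CT, 9.57, 10.4 and 10.63 FPKM in EtOH, 14.26, 14.7 and 15.19 FPKM in DEHP and 13.68, 14.9 and 17.57 FPKM in DE. Every DEHP and DE library was above every CT and EtOH library. Its change of 0.59 ± 0.07 in DE (adjusted p = 3.22e-07) was 0.55 with the length trend removed. Mrpl15 changed by 0.56 ± 0.07 (adjusted p = 2.29e-06; 0.54 after length correction) and Mrpl40 by 0.54 ± 0.10 (adjusted p = 0.000163; 0.34).

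Mrpl17 stood apart in its length. It is the longest member, with 6712 bases in the deposited tables. It was at 7.02, 7.32 and 8.21 FPKM in CT and 9.62, 10 and 12.04 FPKM in DE, without overlap, and its change of 0.48 ± 0.08 (edgeR, adjusted p = 5.67e-05) was 0.72 with the length trend removed (adjusted p = 1.69e-05). Mrpl17 is given outside the rule for named genes, chosen after its values were seen, as are Mrpl10, Mrpl16, Mrpl18, Mrpl34, Mrpl35, Mrpl53 and Mrps15. Mrpl11 was 0.40 ± 0.09 higher (adjusted p = 0.000778; 0.40 after correction). Mrpl3, Mrpl52 and Mrpl57 did not pass in DE, at 0.22, 0.22 and 0.21 (adjusted p = 0.0687, 0.123 and 0.16).

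**Figure D3:**
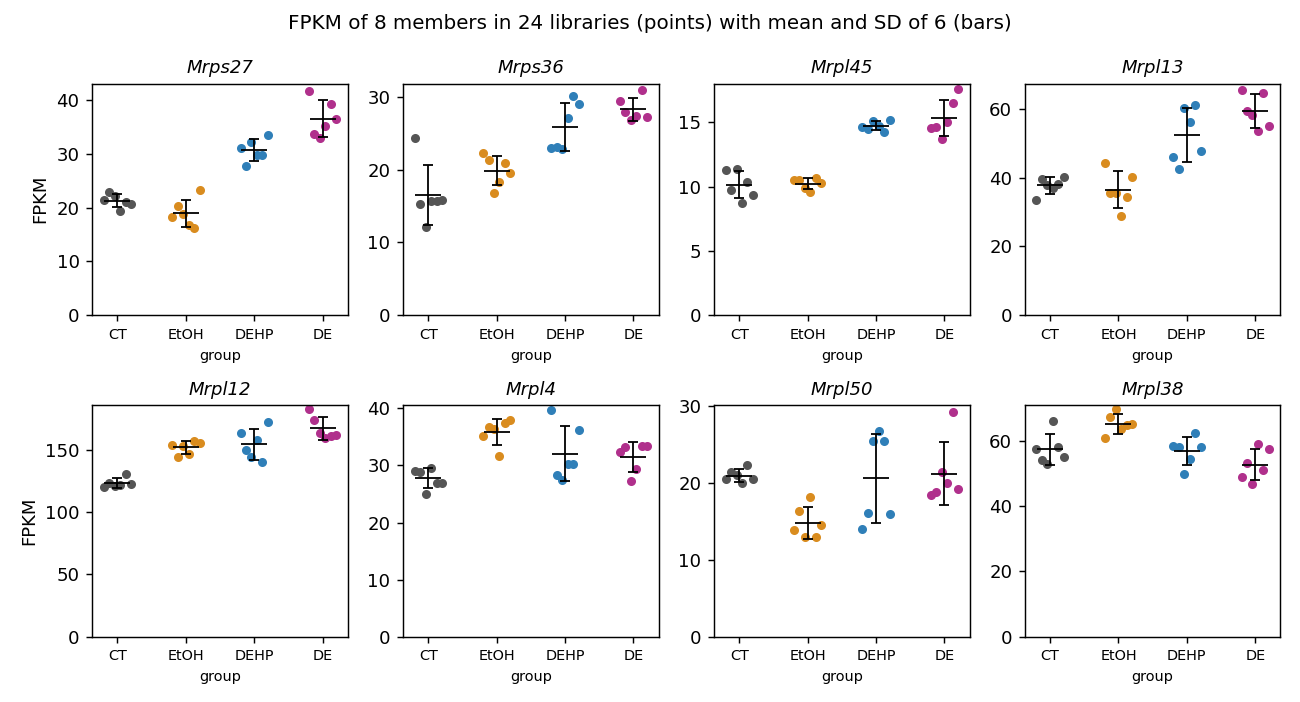
FPKM of 8 members in all 24 libraries, one point a library, with the mean and SD of 6 as bars and axes from 0. Mrps27, Mrps36, Mrpl45 and Mrpl13 are high in DEHP and DE, Mrpl12 is lowest in CT, Mrpl4 and Mrpl38 are highest in EtOH in median, and Mrpl50 is lowest there.

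DEHP alone against vehicle raised fewer members. In edgeR with Benjamini-Hochberg adjustment 17 of 48 large and 14 of 29 small subunit genes were higher in DEHP than in CT and none was lower, beside 14.4% of all genes higher and 11.6% lower. The medians were 0.18 and 0.25, beside -0.02 for all genes tested. With the length trend removed 13 large and 7 small subunit genes were higher (13.2% of all genes), and Mrpl34 and Mrps15, whose levels overlapped between the groups, were lower (9.95% of all genes). The FPKM of 19 members did not overlap between DEHP and CT, all higher in DEHP, beside 7.24% of all genes higher and 2.72% lower. Without CT 1, DE 6 and DEHP 6, 21 members were higher, 7 of them of the small subunit. The share of all genes in that fit is not given here. Against CT, 4 of 8 hepatocyte markers were lower and 1 higher in DEHP, with sums of 40000 to 49800 FPKM. Of the other cells, 2 of 7 endothelial, 2 of 6 stellate and 1 skeletal muscle marker were lower, and 1 of exocrine pancreas was higher. The part of these in the result was not tested.

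The largest changes in DEHP without length correction, after Mrps36, were those of Mrpl54 (0.53 ± 0.12, edgeR, adjusted p = 0.00192), Mrpl45 (0.52 ± 0.07, adjusted p = 3.08e-06), Mrpl15 (0.51 ± 0.07, adjusted p = 1.46e-05) and Mrps27. Mrpl44, a protein with a ribonuclease III fold near the exit tunnel, was at 14.64, 17.2 and 17.43 FPKM in CT and 21.76, 23.3 and 24.86 FPKM in DEHP. Its groups did not overlap, with a change of 0.49 ± 0.08 (adjusted p = 2.78e-05). Mrpl16 changed by the same 0.49 ± 0.08 (adjusted p = 4.7e-05), Mrps18b by 0.43 ± 0.10 (adjusted p = 0.00381) and the stalk base protein Mrpl10 by 0.36 ± 0.07 (adjusted p = 0.00027). Several calls did not hold when a single library was left out. Of the 24 libraries, leaving out any 1 of 11 undid the call of Mrpl19 (adjusted p up to 0.1), any 1 of 9 that of Mrps12 (up to 0.126) and any 1 of 7 that of Mrpl40 (up to 0.0908). Mrps34 (0.27, adjusted p = 0.0173) was lost without CT 2 (adjusted p = 0.0544) or DEHP 1 (adjusted p = 0.0606), and Mrps21 (0.34, adjusted p = 0.0275) without CT 3, CT 5 or DEHP 5, with adjusted p up to 0.0743.

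Ethanol alone gave 9 of 48 large and 6 of 29 small subunit genes higher than in CT, and 1 lower, in edgeR with Benjamini-Hochberg adjustment. Over all genes tested 14.2% were higher and 14.5% lower. The medians of 0.14 and 0.15, beside -0.01 for all genes, became 0.06 and 0.02 with the length trend removed, when 6 large and 4 small subunit genes were higher (13.0% of all genes) and 2 lower (11.1%). The direction also depended on the scaling: on log2(TPM + 1) in limma the members' median was -0.02 with 4 higher and 7 lower, while the median of all genes was -0.15. Without TMM factors 8 were higher and 1 lower, with medians of 0.07 for members and -0.09 for all genes. Of the calls over all genes, 49.5% were higher in the count fit, 31.1% without TMM factors, 38% on log2(FPKM + 1) and 14.8% on log2(TPM + 1). The member counts on these other scalings are likewise given without the share of all genes. The groups did not overlap in FPKM for 3 members that were higher (3.9% of all genes), Mrpl12, Mrpl4 and Mrps34, and for 1 that was lower (6.76%), Mrpl50. Of the markers of other cells, 3 of 7 of liver endothelium were lower in EtOH (summed 40.7 to 57.1 FPKM in EtOH against 52.1 to 110 FPKM in CT). So were 2 of 6 of stellate cells (35.7 to 51.2 against 52.0 to 215 FPKM). The 215 FPKM is that of CT 1, and after it and 181 FPKM in DE the next highest library was at 73.9 FPKM. Also lower was 1 marker each of skeletal muscle, cholangiocytes and lymphocytes, and no marker of other cells was higher. Of the 8 hepatocyte markers 2 were higher and 2 lower. The part of these in the members' changes was not tested.

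Mrpl4, a large subunit protein with a bacterial counterpart in the wall of the exit tunnel, had the largest rise without length correction. It was at 25.06, 27.9 and 29.64 FPKM in CT, 31.64, 36.5 and 37.93 FPKM in EtOH, 27.52, 30.3 and 39.79 FPKM in DEHP and 27.25, 32.8 and 33.42 FPKM in DE. The EtOH libraries lay above all CT libraries, while DEHP and DE overlapped with both. The change in EtOH was 0.44 ± 0.09 (edgeR, adjusted p = 0.00102). Mrpl12 was at 119.81, 122 and 130.53 FPKM in CT, 144.28, 153 and 157.1 FPKM in EtOH, 139.81, 154 and 172.43 FPKM in DEHP and 159.09, 163 and 182.29 FPKM in DE. All treated libraries lay above all CT libraries. Its changes were 0.36 ± 0.07 in EtOH (adjusted p = 0.000335), 0.31 ± 0.07 in DEHP (adjusted p = 0.00122) and 0.43 ± 0.07 in DE (adjusted p = 1.8e-05).

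Mrpl50, a large subunit protein that only mitochondria have, went the other way. It was at 19.93, 20.7 and 22.3 FPKM in CT, 12.9, 14.2 and 18.1 FPKM in EtOH, 13.99, 20.8 and 26.68 FPKM in DEHP and 18.45, 19.6 and 29.23 FPKM in DE. EtOH lay below all CT and all DE libraries, and DEHP spread across the other groups. The fall in EtOH was -0.44 ± 0.13 (edgeR, adjusted p = 0.0164), or -0.48 with the length trend removed, when Mrpl18 was lower as well (-0.30, adjusted p = 0.0189). Among the other rises in EtOH were Mrpl28 (0.40 ± 0.09, adjusted p = 0.00206), Mrps10 (0.39 ± 0.10, adjusted p = 0.00589), Mrps26 (0.36 ± 0.08, adjusted p = 0.00245) and Mrps34 (0.36 ± 0.08, adjusted p = 0.0027). Mrpl55 (0.37 ± 0.12, adjusted p = 0.0227) was lost without CT 3 or without EtOH 3, 5 or 6, with adjusted p of 0.0511 to 0.0625. Of the other rises in EtOH, those of Mrpl15 and Mrpl44 were each lost without any 1 of 7 libraries and that of Mrpl14 without any 1 of 3.

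Adding ethanol to DEHP gave no call. In DE against DEHP 0 of 77 members passed in edgeR and 0 in DESeq2, beside 0.0467% of all genes higher, 0.0748% lower and 0.122% in either direction in edgeR; 14 members had an unadjusted p under 0.05 in edgeR and 11 in DESeq2. The medians were 0.08 for the large and 0.14 for the small subunit, and 0.02 and 0.05 with the length trend removed, when 0.00935% of all genes were higher and 0.00935% lower, 0.0187% in either direction. No member had groups without overlap, beside 0.299% of all genes higher and 0.365% lower. A change that misses the threshold does not show that the groups are alike: for Mrps27 the estimate was 0.26 ± 0.08 (edgeR, adjusted p = 0.231).

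In DE against EtOH 17 large and 9 small subunit genes were higher in edgeR with Benjamini-Hochberg adjustment, beside 15.1% of all genes, and 2 large subunit genes were lower, beside 12.7%. The medians were 0.19 and 0.18, beside 0.02 for all genes. With the length trend removed 11 large and 7 small subunit genes were higher (14.5% of all genes) and 3 lower (13.8%), Mrpl53 being the third. The FPKM did not overlap for 23 members that were higher (11.3% of all genes) and for 1 that was lower (4.36%). The scaling mattered here as well, with 45 members higher on log2(FPKM + 1), 44 without TMM factors and 53 on log2(TPM + 1), where all genes had a median of 0.12. Of the calls over all genes, 54.4% were higher in the count fit, 69.1% on log2(FPKM + 1), 70.6% without TMM factors and 78.7% on log2(TPM + 1). Shares of all genes called higher in these settings are not given here, so the member counts describe only the effect of scaling. The summed hepatocyte markers were 41900 to 46400 FPKM in DE against 55500 to 68500 FPKM in EtOH, without overlap, and their part in the result was not tested. The 17 large subunit genes became 11 without DE 5, and likewise without EtOH 3.

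Mrps27 rose by 0.87 ± 0.08 from EtOH to DE (edgeR, adjusted p = 1.68e-08), and no other member rose as much. Mrpl13 rose by 0.63 ± 0.10 (adjusted p = 3.99e-05), Mrpl40 by 0.55 ± 0.10 (adjusted p = 0.000146), Mrpl45 by 0.51 ± 0.07 (adjusted p = 2.82e-06) and Mrps22, which belongs to the mitochondria-specific part of the small subunit, by 0.41 ± 0.10 (adjusted p = 0.00407). Mrpl50 rose by 0.44 ± 0.13 (adjusted p = 0.0134), but without DE 5 by 0.33 (adjusted p = 0.0653). Mrpl38, whose protein carries a fold of the phosphatidylethanolamine-binding family, fell. It was at 53.13, 56.4 and 66.27 FPKM in CT, 60.92, 65.1 and 69.84 FPKM in EtOH, 49.87, 58.2 and 62.64 FPKM in DEHP and 46.94, 52.2 and 59.09 FPKM in DE. DE and EtOH did not overlap, and the change was -0.38 ± 0.07 (adjusted p = 0.000263). Mrpl4 was lower by -0.26 ± 0.09 (adjusted p = 0.0273), which was lost without DE 3, DE 4, EtOH 5 or EtOH 6, with adjusted p of 0.0505 to 0.0726.

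The interaction asks whether ethanol's log2 change differs with and without DEHP. Mrpl4 and Mrpl38, both of the large subunit, passed in edgeR with Benjamini-Hochberg adjustment, and both were lower; 3.09% of all genes were lower and 3.32% higher, 6.41% in either direction. The estimates were -0.46 ± 0.13 for Mrpl4 (adjusted p = 0.03) and -0.35 ± 0.10 for Mrpl38 (adjusted p = 0.0395), and -0.41 (adjusted p = 0.0253) and -0.31 (adjusted p = 0.0483) with the length trend removed, when Mrps27 was higher (0.39, adjusted p = 0.0289) and 3.28% of all genes were higher and 3.86% lower. For both genes ethanol alone gave a rise and ethanol on top of DEHP did not, at -0.02 for Mrpl4 and -0.10 for Mrpl38. Both calls lay near the threshold and were lost when single libraries were left out. The estimates then ranged from -0.50 to -0.38 for Mrpl4 and from -0.40 to -0.32 for Mrpl38. Mrpl4 was lost without CT 3, DE 3, DEHP 1, DEHP 6 or EtOH 5 (adjusted p of 0.0505 to 0.0635). Mrpl38 was lost without any 1 of 15 of the 24 libraries, namely CT 1, 2, 3 and 6, EtOH 2, 3, 5 and 6, DEHP 1, 2, 5 and 6, and DE 1, 3 and 5, with adjusted p up to 0.0755, and neither passed without CT 1, DE 6 and DEHP 6.

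Members are short: their deposited lengths had a median of 1056 bases (412 to 6712), against 2704 for all genes tested. Libraries differed in how counts depended on length. At 500 bases the fitted trend of log2 counts was -0.15 in the median CT library, 0.04 in EtOH, 0.01 in DEHP and 0.16 in DE. Across all genes tested the log2 change from CT to DE had a Pearson r of -0.25 and a Spearman rho of -0.36 with log2 length, and across the 77 members -0.11 and -0.08. After the trend was removed these were 0.03 and 0.02 for all genes and 0.44 and 0.39 for members; genes are not independent replicates, and these values describe the same libraries. Whether the trend is technical or a property of the livers was not tested.

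**Figure D4:**
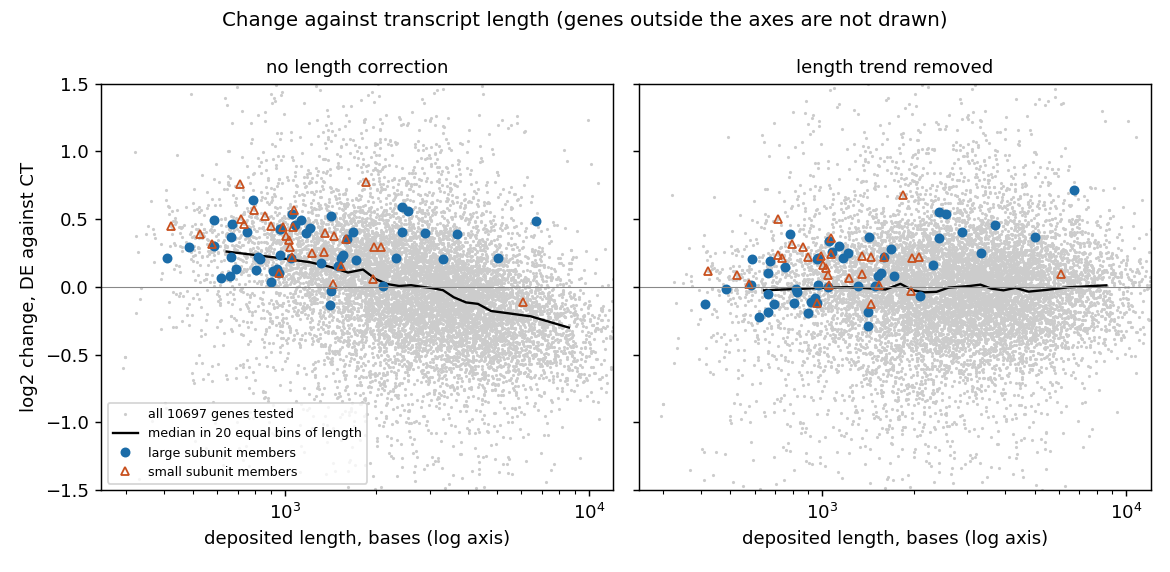
Log2 change in DE against CT over deposited length, without (left) and with (right) removal of each library's length trend. Grey points are all 10697 genes tested, the line is the median in 20 bins of equal gene number, and members are drawn as circles (large) and triangles (small). On the left the line falls with length and most members are short; on the right it is flat, and the members of 2000 bases and more lie mostly above it.

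The counts in DE against CT can be set beside genes of like length, as a description with no test. Of the 33 members under 1000 bases 54.5% were higher, beside 39.5% of 896 genes of that length, and with the trend removed 21.2% beside 12.9%. Between 1000 and 2000 bases the shares were 62.5% of 32 members and 28.7% of 2609 genes, and 37.5% and 16.2% with the trend removed. Of the 12 members of 2000 bases and more 58.3% were higher, beside 13.4% of 7192 genes, and 66.7% beside 15.9% with the trend removed. These long members, Mrpl45, Mrpl15 and Mrpl17 among them, had a median change of 0.34 without and 0.36 with the correction. The short ones went from 0.32 to 0.02. The medians of all genes tested went from -0.09 to -0.01 at 2000 bases and more, and from 0.25 to -0.02 under 1000 bases.

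By origin, 29 large and 16 small subunit genes were classed as having bacterial counterparts, and 19 and 13 as mitochondria-specific. The 13 take in Mrps36, and also Mrps18a and Mrps18b, although these share an ancestor with Mrps18c, which was classed with the 16. In DE against CT 14 of 29 and 9 of 19 were higher in the large subunit, with medians of 0.29 and 0.23. In the small subunit 13 of 16 and 9 of 13 were higher, with medians of 0.36 and 0.44. Of all genes tested 19.3% were higher in DE, and 15.7% with the length trend removed. With the length trend removed the small subunit counts were 4 of 16 for genes with a bacterial counterpart and 7 of 13 for those classed as mitochondria-specific, and the large subunit counts 11 of 29 and 5 of 19. Mrps18a, Mrps18b and Mrps36 are among the 7 of 13. The difference between the classes was not tested. In DEHP against CT, before correction, 12 of 29, 5 of 19, 7 of 16 and 7 of 13 were higher in the same order, beside 14.4% of all genes.

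Other genes of mitochondrial translation were counted in the same way for DE against CT, where 19.3% of all genes were higher and 15.7% with the length trend removed. Of 6 ribosomal proteins under other names, 4 were higher in DE than in CT and none lower (2 with the length trend removed). Dap3, a GTP-binding protein of the small subunit, was at 6.94, 7.14 and 7.95 FPKM in CT and 9.03, 10.1 and 11.14 FPKM in DE, without overlap (0.41 ± 0.08, edgeR, adjusted p = 0.00032). Of 27 assembly factors 11 were higher and none lower; with the trend removed 4 were higher, a share near that of all genes. Malsu1, which binds the large subunit during its assembly, changed by 0.45 ± 0.09 (edgeR, adjusted p = 0.000227), but did not pass with the trend removed (0.21, adjusted p = 0.0778). Of 17 translation factors 8 were higher and none lower (5 with the trend removed). Tufm, the elongation factor that brings aminoacyl-tRNA to the ribosome, was at 67.23, 69.2 and 77.5 FPKM in CT and 91.36, 97.4 and 106.89 FPKM in DE (0.46 ± 0.07, adjusted p = 8.85e-06), and Oxa1l, which inserts the new chains into the inner membrane, changed by 0.46 ± 0.06 (adjusted p = 2.82e-06). Neither gene's groups overlapped.

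Of 20 mitochondrial aminoacyl-tRNA synthetases and amidotransferase subunits 8 were higher in DE and none lower, and 9 with the length trend removed. Gatb, a subunit of the enzyme that makes glutaminyl-tRNA, was at 13.52, 14.1 and 15.35 FPKM in CT, 13.76, 14.6 and 15.25 FPKM in EtOH, 19.76, 23.5 and 26.23 FPKM in DEHP and 18.72, 21.5 and 24.58 FPKM in DE. Its levels in DEHP and DE stood above those in CT and EtOH in every library, by 0.68 ± 0.08 (edgeR, adjusted p = 2.36e-07) and 0.61 ± 0.08 (adjusted p = 8.73e-07) against CT. Of 13 genes of mitochondrial DNA transcription and replication none passed in DE or in DEHP against CT in edgeR, and 1 was higher in each with the trend removed. Of 14 nuclear regulators 1 was higher and 5 were lower in DE, beside 19.3% and 17.4% of all genes, and 2 were higher and 2 lower with the trend removed, beside 15.7% and 13.2%. In EtOH against CT the nuclear receptor Ppard was lower (-2.53 ± 0.23, adjusted p = 3.17e-08), as was Ppargc1a, a coactivator of mitochondrial genes (-1.04 ± 0.19, adjusted p = 0.00041), while Esrra (0.68 ± 0.13, adjusted p = 0.000647) and Nrf1 (0.52 ± 0.12, adjusted p = 0.00381), the last named after its values were seen, were higher.

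Beside the members, 68 of 80 nuclear subunits of oxidative phosphorylation (OXPHOS) were higher in DE than in CT, and 24 with the length trend removed. Of 84 cytosolic ribosomal protein genes 56 were higher, and 6 higher and 6 lower with the trend removed. The median lengths of these lists were 713 and 706 bases. In EtOH against CT 45 of the 84 cytosolic and 28 of the 80 OXPHOS genes were higher, against 15 of the 77 members and 14.2% of all genes. After length correction these counts were 9, 2 and 10, beside 13.0% of all genes, and no list had a share above that. In DEHP against CT 17 cytosolic and 45 OXPHOS genes and 31 members were higher, beside 14.4% of all genes. With the trend removed 3 cytosolic genes were higher and 9 lower, and 20 OXPHOS genes and 20 members were higher, beside 13.2% of all genes higher and 9.95% lower. Comparisons against CT share its libraries, so these counts are not independent of each other.

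**Figure D5:**
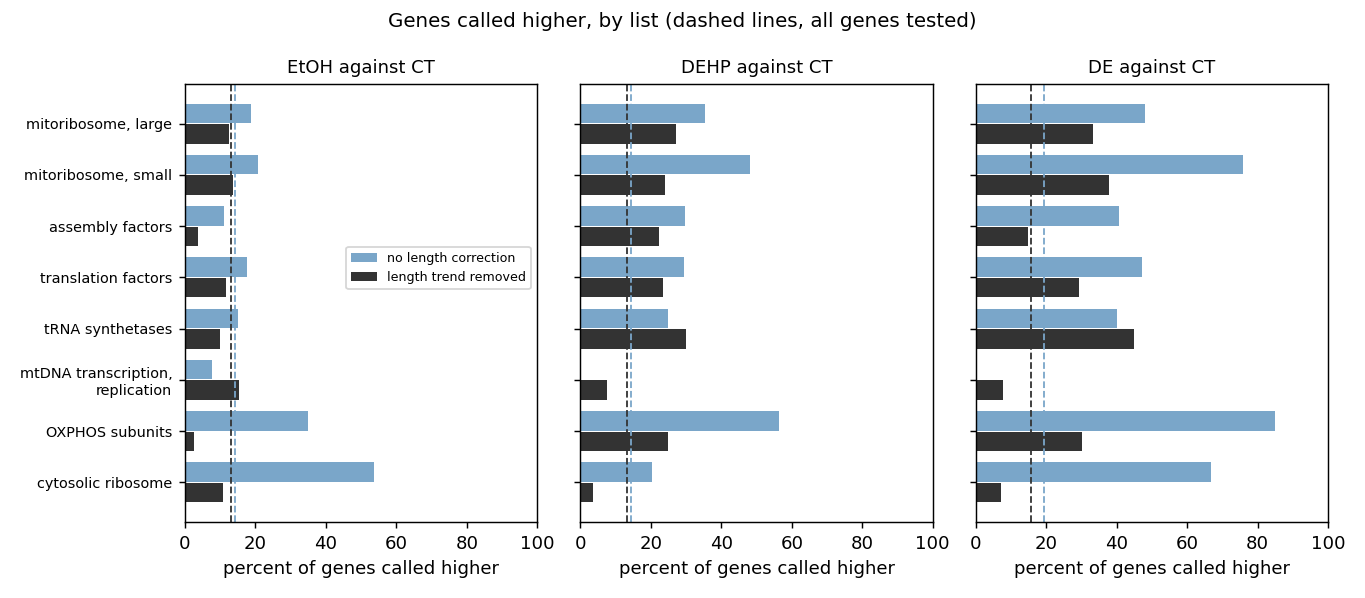
Percent of tested genes called higher against CT in EtOH, DEHP and DE (panels) for 8 lists, without (blue) and with (black) removal of the length trend; dashed lines are all genes tested, 14.2%, 14.4% and 19.3% without correction. In DE the blue bars of both mitochondrial ribosome lists lie above the dashed line, as do their black bars, whereas the black bar of the cytosolic ribosome lies below it. The EtOH bars depend on the scaling, as given in the text.

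Members often share their start region with another gene. By the GENCODE annotation, 33 of the 77 (42.9%) have a protein-coding gene on the opposite strand that starts within 1000 bases, against 17.2% of 10150 genes tested, and their genes lie on 17 chromosomes, 10 of them on chromosome 11. Of 27 such partners that were tested, 10 were higher and 5 lower in DE than in CT in edgeR, beside 19.3% and 17.4% of all genes, with a median of 0.17 beside 0.37 for their members. After length correction 6 partners were higher and 3 lower, beside 15.7% and 13.2% of all genes, and both medians were 0.10. Mrps11 and Mrpl46 are partners of each other, so these partners are members themselves. Both were among the 10 higher before correction. Ptcd2, which starts 81 bases from Mrps27, was higher by 0.51 (adjusted p = 5.57e-06), and Apba3, 26 bases from Mrpl54, by 0.57 (adjusted p = 7.32e-05). Ppp1r10, 45 bases from Mrps18b, was lower by -1.38 (adjusted p = 0.000355), and Wdfy1, 125 bases from Mrpl44, by -0.91 (adjusted p = 0.00186), while both members were higher. These partners were chosen after their values were seen. The exons of 32 members overlap those of another gene, 8 on the same and 27 on the other strand, and since the use of strand in counting is not given in the sources used here, reads of such pairs may be shared.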

How the data were processed

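Liver RNA of 24 libraries, 6 in each of 4 groups, was sequenced from 1 ug of total RNA with a TruSeq kit, per the labels' protocols. Each deposited table lists, per the file headers, an expected count, an FPKM and a length for every gene above 0. The expected counts were deposited by the authors without normalization, and 94.5% to 95.3% of them were whole. The FPKM values were scaled by the authors to length and library size. Cuffdiff and the builds mm10 and GRCm38 are named in the submitters' processing notes; not given in the sources used here: the aligner, the counting program, whether strand was used and how shared reads were treated.

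Groups were taken from the sample labels. Counts were rounded to whole numbers, and genes with at least 1 FPKM in at least 6 libraries were kept (10697 genes). TMM factors were computed and all 24 libraries fitted together by the quasi-likelihood F test of edgeR 4.0.16, run under R 4.3.3 (20 residual degrees of freedom), and p-values were adjusted by Benjamini-Hochberg over all genes tested, with a threshold of 0.05. The standard error is the size of the log2 change divided by the square root of F. The length trend of a library was a lowess fit (span 66.7%) of log2 CPM (prior count 2) minus the gene's mean on log2 length, removed as an offset. The scripts were tested on simulated counts. Alternatives used DESeq2 1.42.0, limma 3.58.1 on log2(FPKM + 1), log2(FPKM + 0.1) and log2(TPM + 1), other filters and scalings, a block on the replicate number, and libraries left out.

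The members, gene lists and classes by origin were chosen with earlier results of these data known. Named members are, per pairwise comparison and subunit, up to 4 called with the largest rise and up to 4 with the largest fall, called members of the interaction, the 3 highest and the lowest by FPKM in each subunit, and a fixed set; from the other lists, up to 3 called genes per comparison with the smallest adjusted p. Neighbouring and overlapping genes are from GENCODE, and promoters and the position given for Mrps27 from RefSeq, all on GRCm38. The replicate numbers did not pair the libraries.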

Additional observations from a re-analysis of the deposited data

Results flagged for a closer look

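144 groups of 6 libraries were examined, for the FPKM of 32 named members and for each subunit's median per library with and without length correction, and 11 of them held a library whose gap to its nearest neighbour took up most of the range of the group; chance gives this in about 1 of 20 groups. In CT these were Mrpl12 in CT 5 (130.53 FPKM, others 119.81 to 123.52), Mrpl15 in CT 2 (19.82 FPKM, others 16.32 to 17.2), Mrps12 in CT 5 (60.1 FPKM, others 53.51 to 55.93) and Mrps36 in CT 1 (24.37 FPKM, others 12.04 to 15.8). CT 1 is a library with muscle and stellate cell transcripts; their part in the Mrps36 value was not tested. In EtOH they were Mrps34 in EtOH 2 (80.64 FPKM, others 88.71 to 91.51), Mrpl15 in EtOH 2 (20.74 FPKM, others 18.22 to 18.74), Mrpl44 in EtOH 4 (15.02 FPKM, others 18.2 to 20.03) and Mrpl57 in EtOH 5 (13.66 FPKM, others 10.72 to 11.32). In DEHP they were Mrps34 in DEHP 1 (105.21 FPKM, others 80.32 to 87.85) and Mrps21 in DEHP 5 (128.34 FPKM, others 101.28 to 105.84), and in DE Mrpl50 in DE 5 (29.23 FPKM, others 18.45 to 21.36).

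The change with ethanol differed with and without DEHP, by the interaction in edgeR, for Mrpl4 (-0.46, adjusted p = 0.03) and Mrpl38 (-0.35, adjusted p = 0.0395). Both are calls that single libraries undo, as given with the interaction above.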

How the results depend on the processing

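No call of a named member changed direction, but many counts moved by more than 1.5 times. Shares of all genes are not set beside the counts in this section, so these counts describe only how the calls move. The medians for EtOH against CT fell to -0.02 on log2(TPM + 1), where more members were lower than higher. Those of the interaction lay on both sides of 0 over the settings. With the length trend removed, members lower in EtOH than CT were 2 in the large subunit; in DEHP 7 small were higher and 1 large and 1 small lower; in DE 11 small were higher and 1 large lower; DE against EtOH gave 11 large higher; and the interaction gave 1 small higher. On log2(TPM + 1), EtOH gave 3 large and 1 small higher and 4 large and 3 small lower, DE against CT 1 large lower, and DE against EtOH 31 large and 22 small higher and 1 large lower. On log2(FPKM + 1) and log2(FPKM + 0.1), DE against EtOH gave 28 large and 17 small higher and 1 large lower. Without TMM factors EtOH gave 4 large higher, and DE against EtOH 28 large and 16 small higher and 1 large lower. With only the groups compared, 9 small were higher in DEHP; without CT 1, DE 6 and DEHP 6, 7 were. With those libraries and the length trend both removed, chosen after seeing the data, EtOH gave 5 large and 2 small higher and 2 large lower, DEHP 10 large and 4 small higher and 1 large lower, and DE against CT 15 large and 8 small higher and 1 large lower. The 2 large subunit interaction calls became 1 on log2(FPKM + 1), with no filter and with the block (also with the length trend removed), and 0 on log2(FPKM + 0.1), on log2(TPM + 1), without TMM factors and without the 3 libraries (with and without the length trend). 1 small subunit gene was higher in the interaction under DESeq2, with at least 1 FPKM in all libraries, in the 3 limma fits, without TMM factors and in each fit with the length trend removed.

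Leaving out each library in turn gave 11 to 19 large higher, 1 to 2 large lower and 0 to 1 small lower in DE against EtOH, and in the interaction 0 to 2 large lower, 0 to 1 small higher and 0 to 1 small lower. Over 37 settings the median for DE against CT was 0.10 to 0.27 (large) and 0.18 to 0.39 (small), for DEHP 0.08 to 0.21 and 0.11 to 0.26, and for EtOH -0.02 to 0.15 and -0.02 to 0.16, below 0 only on log2(TPM + 1). Of 71 calls of named members, 18 were lost with the length trend removed and 3 under DESeq2, and none was reversed.

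Replicate numbers are shared across groups, but same-numbered libraries did not deviate together: over 36 pairs r was -0.215 to 0.211, 6 pairs were over 0.1, and 2 of 24 libraries correlated best with their own number. With the number as a block, 16 members were higher and 1 lower in EtOH, 27 were higher in DEHP, 45 in DE, and 26 higher and 2 lower in DE against EtOH. With the block and the length trend removed, EtOH gave 5 large and 3 small higher and 2 large and 1 small lower, DEHP 6 small higher and 1 small lower, DE against CT 10 small higher and 1 large lower, and DE against EtOH 11 large higher.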
